A study of Mus musculus with 57 samples.

Results

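The proteasome genes of the mouse were described across 3 brain regions of mice offered ethanol. Genes were taken where a probeset of the array carried 1 annotated symbol that begins with Psma to Psmg and goes on with a digit. This rule matched 48 genes of the 12393 that have such a probeset, on 85 of 22626 probesets, and the probeset of highest mean level stood for each gene. Of these, 46 encode proteasome subunits, regulators or assembly factors. Psmc3ip and Psme3ip1 match the pattern of letters but are no components, and all counts hereafter are over the 46 components.

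The mice were male C57Bl/6NCrl animals, an inbred strain that drinks ethanol readily, and were 6 to 7 weeks old when they were obtained. Each had free choice between 10% (w/v) ethanol and tap water for 18 h a day over 16 sessions, with 4 days of abstinence after every 4 sessions. Tissue of the nucleus accumbens (NAc), the prefrontal cortex (PFC) and the ventral midbrain region (VMB, labelled as the ventral tegmental area) was collected 6 days after the last session, and RNA of 19 single animals went to 1 array for each region, so that the regions share mice. Every mouse had been offered ethanol and no ethanol-naive group was compared. The authors report that intake differed widely between mice, down to almost none. The relation of the components to the intake of a mouse was not analysed here.

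The proteasome is the protease that degrades proteins tagged with ubiquitin. Its 20S core is a barrel of alpha rings, which gate the entrance, around beta rings, whose subunits Psmb5, Psmb6 and Psmb7 cut the protein chain. The 19S regulatory particle caps the barrel, with a base of ATPases that unfold the substrate and a lid that removes ubiquitin. Under interferon the inducible subunits Psmb8, Psmb9 and Psmb10 replace the constitutive catalytic subunits and form the immunoproteasome, which is known for making peptides for major histocompatibility complex (MHC) class I. In neurons the proteasome is known for protein turnover at synapses.

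Levels are given as normalised RMA levels on the log2 scale, where a difference of 1 is a doubling. The deposited arrays had a different median in each region, 6.26 to 6.32 in NAc, 5.66 to 5.70 in PFC and 5.79 to 5.86 in VMB, so the 57 arrays were first brought to 1 common distribution. After this the 19815 tested probesets had a median of 0.03 for NAc minus PFC, of 0.02 for NAc minus VMB and of 0.02 for VMB minus PFC. As deposited it was 0.72, 0.55 and 0.18, and with arrays centred on their median 0.10, 0.04 and 0.07. A component was called where the adjusted p of limma was under 0.01, and directions are stated as firm only for components called the same way on all 3 scales. As deposited the shift of all probesets favours NAc, so this rule is one-sided in comparisons with NAc. Of all probesets 38.6% were called higher in NAc than in PFC and 38.5% on all 3 scales, but 33.9% lower and 5.29% on all 3. Failing the rule does not show that a lower level in NAc is absent. A level is compared only with levels of the same probeset.

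The regions carried their defining markers. Over 6 striatal projection neuron genes the mean level of an array was 9.85 to 10.35 in NAc and at most 7.54 elsewhere. Over 4 cortical genes it was 8.45 to 8.92 in PFC and at most 7.47 elsewhere, and over 7 dopamine neuron genes it was 7.37 to 7.75 in VMB and at most 6.04 elsewhere. Not every marker followed its list. Pitx3 was not called in any comparison, with means of 4.76 in VMB, 4.92 in NAc and 4.85 in PFC, and Nr4a2, another dopamine neuron gene, was higher in NAc (6.88) than in VMB (5.34). Of the cortical genes, Rorb had 6.25 in PFC, 6.24 in VMB and 5.69 in NAc. The array of PFC replicate 20 is labelled PFC in its title and ventral tegmental area in its other labels. Its cortical mean was 8.65 and its dopamine neuron mean 5.03, and leaving it out changed no call of a component. Replicates 1, 6 and 19 of NAc and 3 and 14 of PFC correlated less with their region than the other arrays did (mean r of 0.982 to 0.985 against 0.989 to 0.993 in NAc).

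More components were higher than lower in NAc and in VMB when each was compared with PFC. In NAc 28 of 46 components were higher than in PFC, 7 were lower and 11 were not called. Over all tested probesets 72.5% were called in this comparison, 38.6% higher and 33.9% lower, and the share of components called, 76.1%, was close to this. The 28 higher components (60.9%) were called higher on all 3 scales, as were 38.5% of all probesets, whereas 1 of the 7 lower components (2.17%, against 5.29% of all probesets) was called lower on all 3. In either direction, 43.8% of all probesets were called on all 3 scales. The median difference of the components was 0.17.

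In VMB 27 components were higher than in PFC, 6 were lower and 13 were not called, where 72.8% of all probesets were called, 37.7% higher and 35.2% lower. On all 3 scales 21 components (45.7%) were higher and 4 (8.7%) lower, against 35.5% and 24.2% of all probesets and 59.7% in either direction. Both counts of higher components include Psma8, which lay near the lower end of the array's range. Between NAc and VMB 15 components were higher in NAc, 19 were lower and 12 were not called, against 74.7% of all probesets called, 39% higher and 35.7% lower. Only the 15 higher components (32.6%, against 35.6% of all probesets) and 1 lower component (2.17%, against 9.71%) were called the same way on all 3 scales, where 45.3% of all probesets were. The median difference between NAc and VMB was -0.07 on the common distribution, 0.06 with median centring and 0.57 as deposited, so no direction is given for the components as a whole in that comparison.

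**Figure D1:**
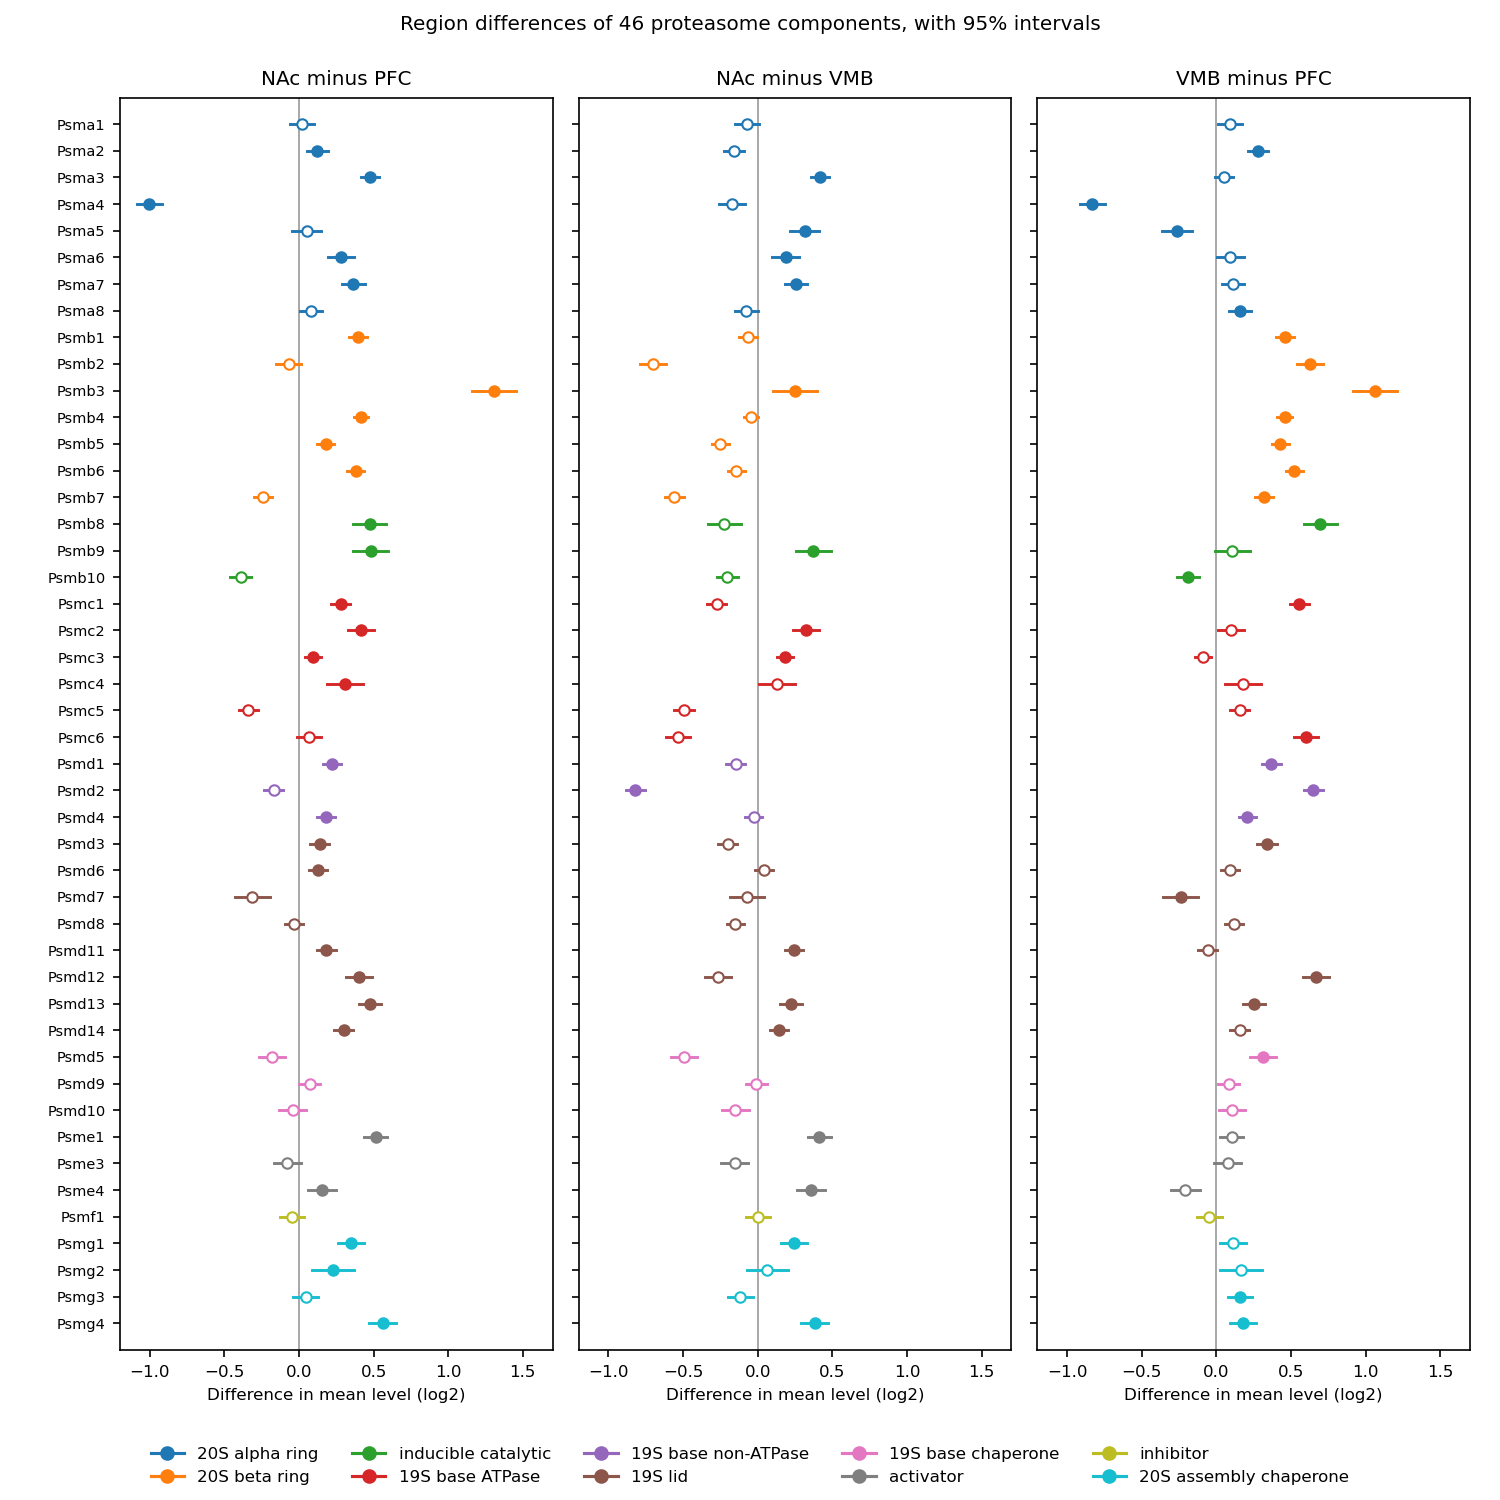
Difference in mean level between 2 regions (x axis, log2) for each of the 46 components (y axis, coloured by role), with 95% intervals from limma. Filled points were called the same way on all 3 scales, 28 higher and 1 lower for NAc minus PFC, 15 and 1 for NAc minus VMB and 21 and 4 for VMB minus PFC, and open points were not.

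Differences were mostly small. Of the components called between NAc and PFC, 3 were higher and 1 lower by at least 0.5, where 13.1% and 13.2% of all probesets were (26.3% in all). Between NAc and VMB 0 were higher and 4 lower by that much (14.5% and 15.9% of all probesets, 30.5% in all), and between VMB and PFC 8 were higher and 1 lower (14.7% and 14.6%, 29.3% in all). The 19 arrays of NAc and the 19 of PFC did not overlap for 8 components, or 17.4%, against 21.9% of all probesets. For NAc and VMB this held for 8 components (17.4% against 23.1%), and for VMB and PFC for 15 (32.6% against 23.9%). In bulk tissue, fewer cells of a type and less RNA per cell cannot be told apart, and the makeup of the regions differed widely. The 8 tested oligodendrocyte markers were all called higher in NAc and VMB than in PFC, as were 38.6% and 37.7% of all probesets. Their array means were 10.00 to 10.32 (NAc), 7.77 to 9.14 (PFC) and 10.83 to 11.16 (VMB). The 9 astrocyte markers had array means of 8.54 to 8.90 (NAc), 8.79 to 9.08 (PFC) and 9.45 to 9.71 (VMB). In VMB 7 of the 9 were called higher than in PFC and 2 lower, Slc1a3 (-1.04) and Slc1a2 (-0.36). Of all probesets 37.7% were higher and 35.2% lower in that comparison. The part of these cell types in the differences of the components was not tested.

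Some orders of the 3 regions held on all 3 scales. PFC lay below both other regions on all 3 scales for 14 components (30.4%, against 20.6% of all probesets), which were Psma2, 5 beta ring subunits (Psmb1, Psmb3, Psmb4, Psmb5 and Psmb6), Psmb8, the ATPase Psmc1, Psmd1, Psmd4, the lid subunits Psmd3, Psmd12 and Psmd13 and the assembly chaperone Psmg4. NAc lay above both other regions for 14 components (30.4%, against 20.6%), among them the alpha subunits Psma3, Psma6 and Psma7, the ATPases Psmc2 and Psmc3, the lid subunits Psmd11, Psmd13 and Psmd14, and the activators Psme1 and Psme4. On all 3 scales Psma4 alone was highest in PFC (3.64% of all probesets were), Psmd2 alone was highest in VMB (7.63%) and Psma5 alone was lowest in VMB (16.3%). On the common distribution further components were called higher in VMB than in both other regions, among them Psmb2, Psmb5, Psmb6, Psmb7 and Psmc6. As deposited, where all probesets shift towards NAc, none of these was called lower in NAc than in VMB. For 7 components, Psma1, Psmc5, Psmd8, Psmd9, Psmd10, Psme3 and Psmf1, no comparison was called the same way on all 3 scales (15.2%, against 21.9% of all probesets).

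The alpha subunits Psma1 to Psma7 form the outer rings of the core. With Psma8 counted, 4 of 8 alpha subunits were higher and 1 lower in NAc than in PFC. In NAc 4 were higher and 2 lower than in VMB, and in VMB 3 were higher and 2 lower than in PFC. Over all probesets 38.6% were higher and 33.9% lower, 39% and 35.7%, and 37.7% and 35.2% in these comparisons. Psma8, the alpha subunit known from testis, lay close to the lower end of the array's range, between 3.60 and 4.13 in all 3 regions. Its highest deposited level was 4.55, just over the filter of 4.5, with deposited means of 4.27 in NAc, 3.39 in PFC and 3.84 in VMB. It is among the 3 counted as higher in VMB than in PFC (0.16), and at this level nothing is read from that difference. Between NAc and PFC, Psma4 and Psma3 differed in opposite directions.

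Psma4 was between 9.02 and 9.67 (median 9.49) in NAc, between 10.26 and 10.61 (median 10.47) in PFC, and between 9.43 and 9.86 (median 9.62) in VMB. All 19 PFC arrays lay above every array of the other regions. NAc was lower than PFC by a log2 difference of -1.002 ± 0.042 (SE, adjusted p = 4.20e-30), and VMB minus PFC was -0.83 (adjusted p = 2.20e-26), and the gene has 1 probeset.

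Psma3 ranged from 10.88 to 11.13 (median 11.03) in NAc, from 10.37 to 10.65 (median 10.55) in PFC and from 10.34 to 10.77 (median 10.58) in VMB. Every NAc array lay above every array of PFC and VMB. NAc exceeded PFC by 0.47 (adjusted p = 8.30e-22) and VMB by 0.42 (adjusted p = 1.28e-19), and the difference of 0.05 between VMB and PFC was not called (95% interval -0.01 to 0.11).

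Psma5 was the only component lowest in VMB on all 3 scales, and on the common distribution Psmc3 and Psme4 were lowest there too. Its levels ran from 9.12 to 10.04 (median 9.68) in VMB, from 9.79 to 10.29 (median 10.01) in NAc and from 9.80 to 10.11 (median 9.97) in PFC, so the arrays overlapped. VMB minus PFC was -0.26 (adjusted p = 2.94e-06). A further probeset of Psma5 gave 0.11 in the opposite direction (adjusted p = 8.44e-04).

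The beta ring holds the catalytic sites. All 7 constitutive beta subunits were higher in VMB than in PFC on all 3 scales with the probesets used, by 0.32 to 1.06 with a median of 0.46, and for all 7 the 19 VMB arrays lay above the 19 PFC arrays. Of all probesets 35.5% were higher on all 3 scales, and for 12.5% the VMB arrays lay above the PFC arrays. In NAc 5 of the 7 were higher than in PFC on all 3 scales, beside 38.5% of all probesets. Psmb7 was lower in NAc on the common distribution and higher as deposited (-0.24 and 0.44), and Psmb2 was not called (-0.07, 95% interval -0.16 to 0.02). Psmb2, a structural beta subunit, had 7.99 to 8.70 (median 8.34) in NAc, 8.24 to 8.76 (median 8.41) in PFC and 8.95 to 9.21 (median 9.03) in VMB. Its VMB arrays lay above all others on the common distribution, and VMB minus PFC was 0.63 (adjusted p = 1.64e-20). As deposited NAc minus VMB was -0.075 for Psmb2 and was not called.

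Psmb3, another structural beta subunit, had the largest positive difference of all components. The probeset used gave 9.75 to 10.59 (median 10.12) in NAc, 8.48 to 9.23 (median 8.81) in PFC and 9.32 to 10.52 (median 9.88) in VMB, and no PFC array reached the range of the other regions. NAc minus PFC was 1.31 ± 0.07 (SE, adjusted p = 4.48e-24) and VMB minus PFC 1.06 (adjusted p = 4.30e-20). The other probeset of Psmb3 was not called in either comparison. There the means were 9.50 ± 0.07 in NAc, 9.40 ± 0.12 in PFC and 9.32 ± 0.13 in VMB (SD, n = 19), with NAc minus PFC at 0.10 (adjusted p = 0.0134) and VMB minus PFC at -0.08 (adjusted p = 0.0398).

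The choice of probeset also mattered for other components. Psmb4 gave a VMB minus PFC difference of 0.46 on the probeset used and of -0.21 on its other probeset (adjusted p = 0.0014). Psmc6, an ATPase of the base, gave 0.60 on the probeset used and -0.07 and -0.23 on its others, neither of which was called. Psmd4 gave 0.21 on the probeset used and 0.10 and -0.29 on its others. Among components above both other regions in NAc, further probesets of Psma6 (-0.82) and Psma7 (-0.15) were called lower in NAc than in VMB. That of Psma6 lay low, at means of 3.64 in NAc and 4.45 in VMB, and another probeset of Psma6 was called higher in NAc (0.15). Further probesets of Psmc2 (0.02), Psmd13 (-0.02) and Psme4 (0.03 and 0.05) were not called between NAc and VMB. Of 31 further tested probesets, which belong to 19 components, 23 had the sign of the probeset used for NAc minus PFC, 19 for NAc minus VMB and 19 for VMB minus PFC. Both probesets were called the same way for 15, 9 and 8 of them and opposite ways for 2, 3 and 4.

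**Figure D2:**
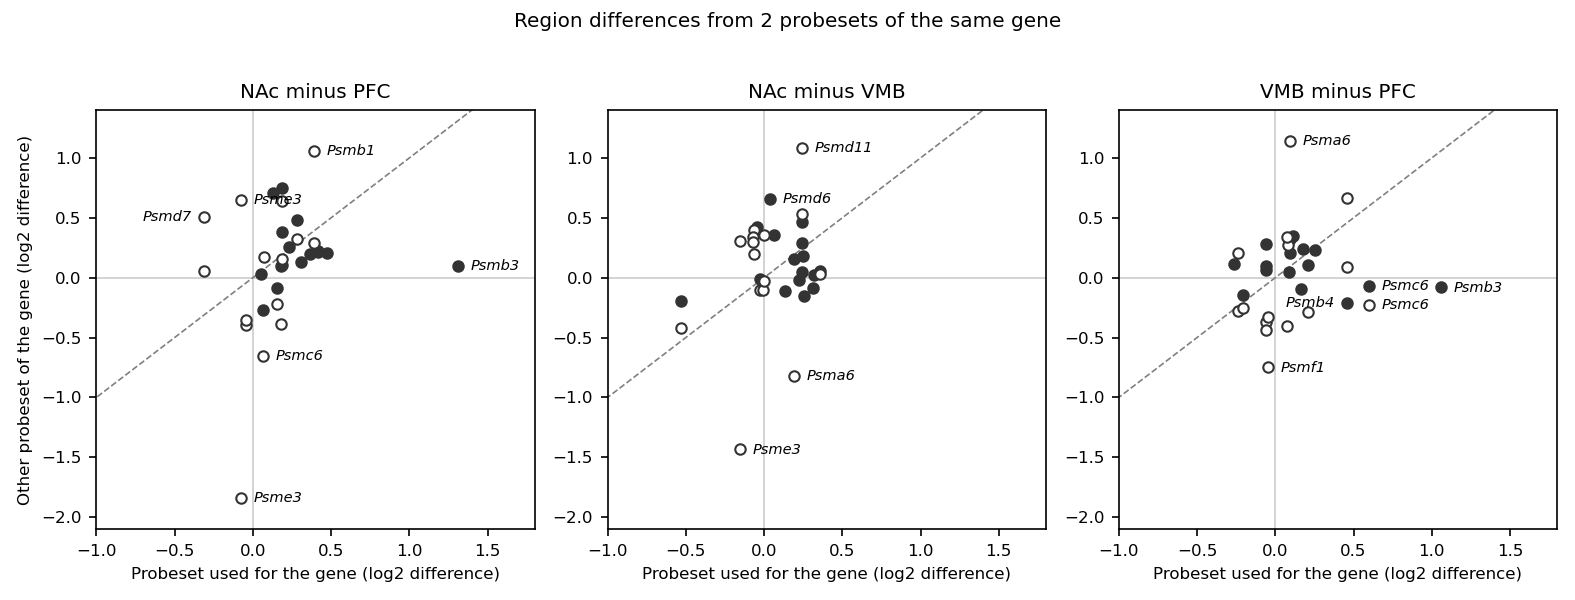
Difference between 2 regions on the probeset used for a component (x axis, log2) and on each of the 31 further probesets of the same gene (y axis, log2), with the line of equality dashed and probesets of a mean deposited level under 7 as open points. Names mark gaps over 0.6, and Psmb3 lies at 1.31 on the x axis and 0.10 on the y axis for NAc minus PFC.

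The constitutive catalytic subunits were all highest in VMB on the common distribution, while as deposited NAc lay above VMB for Psmb5 (0.41), Psmb6 (0.52) and Psmb7 (0.08). Psmb5, the chymotrypsin-like subunit, ranged from 9.69 to 10.01 (median 9.92) in NAc, from 9.54 to 9.86 (median 9.72) in PFC and from 10.00 to 10.26 (median 10.13) in VMB. VMB arrays lay above all PFC arrays, and VMB minus PFC was 0.43 (adjusted p = 1.37e-20).

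Psmb6, the caspase-like subunit, lay between 9.50 and 9.79 (median 9.66) in NAc, 9.09 and 9.44 (median 9.30) in PFC and 9.61 and 9.97 (median 9.84) in VMB. All PFC arrays lay below all arrays of the other regions, by 0.38 against NAc (adjusted p = 4.54e-18) and by 0.52 against VMB (adjusted p = 1.68e-24). Psmb7, the trypsin-like subunit, had 10.49 to 10.90 (median 10.80) in NAc, 10.85 to 11.19 (median 11.01) in PFC and 11.21 to 11.42 (median 11.36) in VMB. The VMB arrays lay above all others, and VMB minus PFC was 0.32 (adjusted p = 3.39e-14).

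The inducible catalytic subunits did not move together. Psmb8, which replaces Psmb5, was low throughout, from 4.95 to 5.54 (median 5.20) in NAc, from 4.507 to 4.996 (median 4.75) in PFC and from 5.15 to 5.85 (median 5.45) in VMB. VMB exceeded PFC by 0.70 without overlap of arrays (adjusted p = 1.37e-17), and NAc exceeded PFC by 0.47 with overlap (adjusted p = 2.19e-11).

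Psmb9, which replaces Psmb6, had 5.01 to 5.84 (median 5.28) in NAc, 4.53 to 5.14 (median 4.90) in PFC and 4.77 to 5.55 (median 4.92) in VMB. It was highest in NAc, by 0.48 over PFC (adjusted p = 8.84e-11) and by 0.37 over VMB (adjusted p = 7.58e-08), and VMB minus PFC was not called (0.11, 95% interval -0.01 to 0.22) but was called higher as deposited (0.36) and with median centring (0.25). Psmb10, which replaces Psmb7, was between 8.22 and 8.70 (median 8.42) in NAc, 8.63 and 8.96 (median 8.82) in PFC and 8.44 and 8.90 (median 8.62) in VMB. It was lower in VMB than in PFC on all 3 scales (-0.19, adjusted p = 4.64e-06), while NAc minus PFC was -0.39 on the common distribution and 0.27 as deposited.

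**Figure D3:**
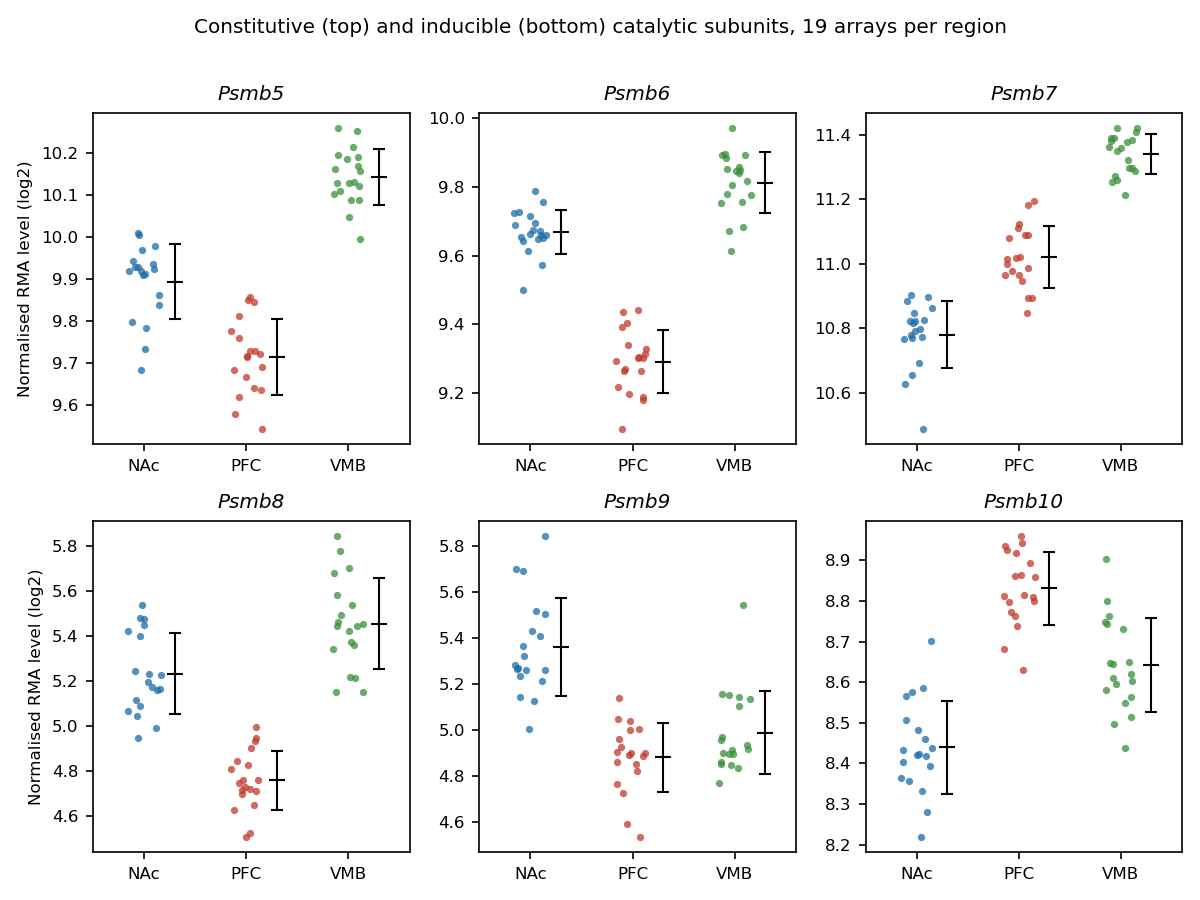
Normalised RMA level (y axis, log2, each panel with its own range) of the constitutive catalytic subunits Psmb5, Psmb6 and Psmb7 and of the inducible subunits Psmb8, Psmb9 and Psmb10 in NAc, PFC and VMB. Points are the 19 arrays of a region and bars the mean ± SD, and Psmb8 was highest in VMB, Psmb9 in NAc and Psmb10 in PFC on this scale. As deposited NAc lay above VMB for Psmb8 (0.21) and above PFC for Psmb10 (0.27).

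Genes of MHC class I antigen processing, which use the peptides that the proteasome makes, were counted beside the inducible subunits. Of 12 listed genes 10 were tested. In VMB 6 were higher than in PFC and 2 lower, with a median of 0.23, and on all 3 scales 5 and 1. In NAc 8 were lower than in VMB and 0 higher, with a median of -0.59, and on all 3 scales 2 were lower. In NAc 8 were also lower than in PFC (median -0.24), none of them on all 3 scales. Of all probesets 72.8% were called between VMB and PFC, 37.7% higher and 35.2% lower in VMB, and on all 3 scales 35.5% and 24.2%. Between NAc and VMB 74.7% were called, 35.7% lower in NAc (9.71% on all 3 scales). Between NAc and PFC it was 72.5%, with 33.9% lower in NAc (5.29% on all 3 scales). On all 3 scales H2-D1 and H2-K1, heavy chains of MHC class I, were higher in VMB than in PFC by 0.92 and 0.62 (adjusted p = 1.76e-12 and 1.66e-09), and Tap1, a subunit of the peptide transporter, by 0.39 (adjusted p = 5.67e-10). H2-K1 and Pdia3, a chaperone of peptide loading, were lower in NAc than in VMB on all 3 scales, by -0.87 and -0.93. Over 11 microglial markers the mean level of an array was 7.14 to 7.49 in VMB, 7.37 to 7.79 in PFC and 7.52 to 7.74 in NAc, and 8 of the 11 were lower in VMB than in PFC.

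In the 19S regulatory particle 12 of 17 subunits were higher and 3 lower in NAc than in PFC (median 0.18), and 13 were higher and 2 lower in VMB than in PFC (median 0.18). On all 3 scales these counts were 12 and 0, and 8 and 1. Over all probesets 38.6% were higher and 33.9% lower in NAc than in PFC, and 37.7% and 35.2% in VMB than in PFC. On all 3 scales these shares were 38.5% and 5.29%, and 35.5% and 24.2%. Of the 6 ATPases, which unfold the substrate, 4 were higher in NAc than in PFC on all 3 scales, Psmc1, Psmc2, Psmc3 and Psmc4, by 0.09 to 0.42. Psmc1 and Psmc6 were higher in VMB than in PFC on all 3 scales, by 0.55 and 0.60.

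Psmc5 was 10.05 to 10.40 in NAc, 10.46 to 10.72 in PFC and 10.59 to 10.89 in VMB, so that the NAc arrays lay below all others on the common distribution. Its NAc minus PFC difference was -0.34 there and 0.34 as deposited, and no direction is given. Psmd1, Psmd2 and Psmd4 are the non-ATPase subunits of the base, of which Psmd4 binds ubiquitin. All were higher in VMB than in PFC on all 3 scales, by 0.37, 0.65 and 0.21, as were 35.5% of all probesets.

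Psmd2, a scaffold of the base, was the only component higher in VMB than in both other regions on all 3 scales. It had 9.44 to 9.88 (median 9.74) in NAc, 9.77 to 9.99 (median 9.90) in PFC and 10.42 to 10.66 (median 10.54) in VMB. The lowest VMB array lay above the highest array of the other regions. NAc minus VMB was -0.82 ± 0.03 (SE, adjusted p = 2.18e-32), and VMB minus PFC was 0.65 (adjusted p = 2.20e-27).

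In the lid Psmd12, a scaffold subunit, was 8.44 to 9.07 (median 8.88) in NAc, 8.27 to 8.65 (median 8.44) in PFC and 8.75 to 9.32 (median 9.10) in VMB. Every VMB array lay above every PFC array, by 0.67 in the mean (adjusted p = 2.14e-21). Psmd7, the partner of the deubiquitinase Psmd14, went the other way, with 8.01 to 8.97 (median 8.70) in NAc, 8.74 to 9.14 (median 8.94) in PFC and 8.38 to 9.03 (median 8.66) in VMB. Its VMB minus PFC difference was -0.24 (adjusted p = 1.59e-04) with overlapping arrays, and its other probesets gave -0.28 and 0.20. Psmd14, which cleaves the ubiquitin chain from the substrate, exceeded PFC by 0.30 and VMB by 0.14 in NAc and was called on all 3 scales.

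Of the 3 chaperones that assemble the base, Psmd5 was higher in VMB than in PFC on all 3 scales (0.31, adjusted p = 2.58e-09). Psmd9 and Psmd10 were not called in the comparisons with PFC, though another probeset of Psmd9 was called higher in VMB (0.28).

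Among the activators, which open the core without the 19S particle, Psme1, a subunit of the interferon-inducible 11S ring, was highest in NAc. It ranged from 8.49 to 8.94 (median 8.71) in NAc, from 7.95 to 8.45 (median 8.17) in PFC and from 8.12 to 8.54 (median 8.28) in VMB. NAc exceeded PFC by 0.51 without overlap of arrays (adjusted p = 7.90e-19) and VMB by 0.41 with overlap (adjusted p = 4.64e-15). Its partner Psme2 has no probeset of a single symbol here and was not analysed.

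Psme4, the PA200 activator of the nucleus, was higher in NAc than in VMB by 0.36 on all 3 scales. Psme3, the nuclear 11S subunit, had 7.78 to 8.60 over all arrays and was not called in the comparisons with PFC. Its other probesets gave NAc minus PFC differences of -1.84 and 0.65, the latter at mean levels of 4.08 in NAc and 3.43 in PFC. Psmf1, an inhibitor of the core, was not called in any comparison on the probeset used, with means of 7.66 ± 0.15 in NAc, 7.71 ± 0.12 in PFC and 7.66 ± 0.10 in VMB (SD, n = 19) and 95% intervals within -0.13 to 0.08. Both its other probesets were called lower in VMB than in PFC (-0.75 and -0.33) and in NAc than in PFC (-0.39 and -0.35).

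The chaperones Psmg1 to Psmg4 assemble the 20S core. In NAc 3 of the 4 were higher than in PFC on all 3 scales, as were 38.5% of all probesets. Psmg4 was 7.35 to 7.81 (median 7.50) in NAc, 6.73 to 7.30 (median 6.93) in PFC and 6.82 to 7.33 (median 7.15) in VMB. The NAc arrays lay above all others, by 0.56 against PFC (adjusted p = 1.17e-17) and 0.38 against VMB (adjusted p = 1.41e-11). Psmg1 in NAc exceeded PFC by 0.35 and VMB by 0.24, while Psmg3 was not called between NAc and either region.

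**Figure D4:**
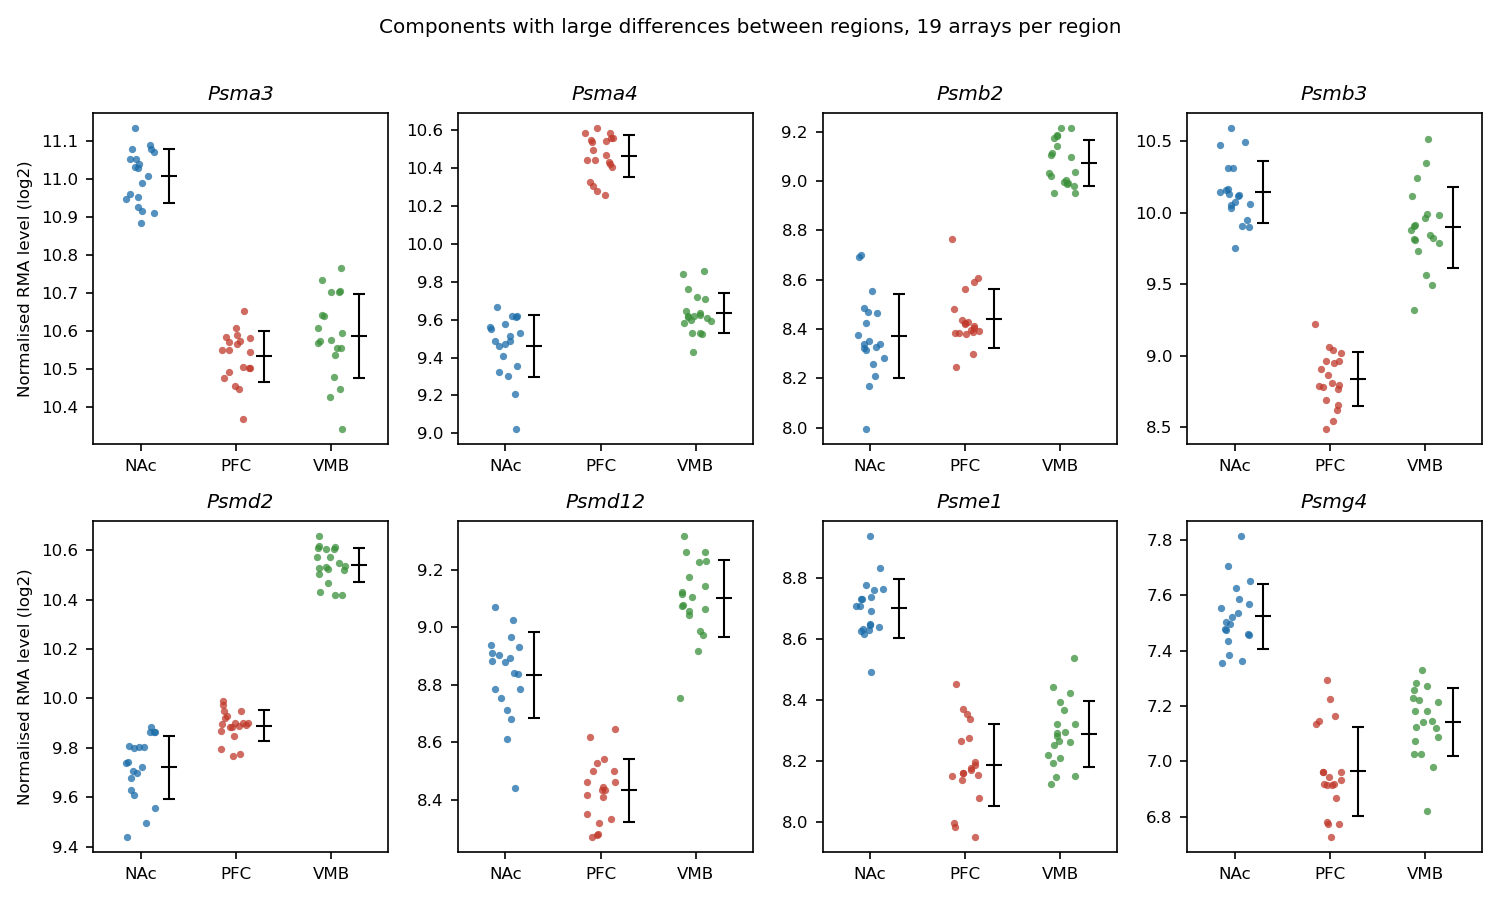
Normalised RMA level (y axis, log2, each panel with its own range) of 8 components in NAc, PFC and VMB. Points are the 19 arrays of a region and bars the mean ± SD. On this scale all PFC arrays of Psma4 lay above the other arrays, all VMB arrays of Psmb2 and Psmd2 did so, and all NAc arrays of Psma3 and Psmg4 did so. As deposited Psmb2 was not called between NAc and VMB (-0.075).

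Partners of the proteasome and factors that deliver ubiquitinated proteins were counted beside the components, with no test between the groups. Of 25 listed genes 16 were tested. In NAc 2 were higher and 10 lower than in PFC (median -0.26), and 3 were higher and 10 lower than in VMB (median -0.29). In VMB 7 were higher and 6 lower than in PFC (median 0.07). Of all probesets 72.5%, 74.7% and 72.8% were called between NAc and PFC, NAc and VMB, and VMB and PFC. Of these comparisons 38.6%, 39% and 37.7% were higher and 33.9%, 35.7% and 35.2% lower, with 43.8%, 45.3% and 59.7% called on all 3 scales. Of the 16 genes, on all 3 scales 2 were higher and 1 lower between NAc and PFC, 3 and 2 between NAc and VMB, and 6 and 4 between VMB and PFC. Rad23b, a shuttle for ubiquitinated proteins, was the 1 that was lower in NAc than in PFC. It had means of 7.70 ± 0.22 in NAc, 9.17 ± 0.14 in PFC and 8.21 ± 0.26 in VMB (SD, n = 19), a difference of -1.47 between NAc and PFC (adjusted p = 1.89e-28) and of -0.96 between VMB and PFC (adjusted p = 5.51e-20).

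Sem1, a small subunit of the lid that carries no Psm symbol, exceeded PFC by 0.51 and VMB by 0.23 in NAc. Akirin2, which brings proteasomes into the nucleus, had 9.83 ± 0.13 in NAc, 10.20 ± 0.08 in PFC and 9.46 ± 0.07 in VMB, and was lower in VMB than in PFC by -0.74 (adjusted p = 1.31e-29). Nfe2l1, the transcription factor known for raising proteasome genes when the protease is inhibited, was 8.05 ± 0.21 in NAc, 8.71 ± 0.14 in PFC and 8.94 ± 0.15 in VMB. It was lower in NAc than in VMB on all 3 scales (-0.89, adjusted p = 1.52e-22), as was Ufd1, which serves the unfoldase Vcp (-0.78, adjusted p = 5.31e-21). Nfe2l2, the related factor of the oxidative stress response, was higher in VMB than in PFC by 0.77 (adjusted p = 1.14e-15).

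Nfe2l1 and Nfe2l2 bind the antioxidant response element, so the promoters of the components were searched for its core TGACNNNGC on either strand. RefSeq windows of 300 bases (build GRCm38.p6, 250 before and 50 after the start of the gene) were held for 38 of the 46 components. The core was found in 6 of these 38 genes (15.79%) and in 13.99% of 27025 genes with a window, and the letters CCAAT, on either strand, in 13 (34.21%) and in 41.06%. Of the components 0 held both, beside 5.02% of all genes. The share with the core lay near that of all genes. The windows of the catalytic subunits Psmb5 and Psmb6, which were higher in VMB and in NAc than in PFC, are given with the core in capitals, at chr14:54617946-54618245 on the minus strand and chr11:70525107-70525406 on the plus strand.
Psmb5: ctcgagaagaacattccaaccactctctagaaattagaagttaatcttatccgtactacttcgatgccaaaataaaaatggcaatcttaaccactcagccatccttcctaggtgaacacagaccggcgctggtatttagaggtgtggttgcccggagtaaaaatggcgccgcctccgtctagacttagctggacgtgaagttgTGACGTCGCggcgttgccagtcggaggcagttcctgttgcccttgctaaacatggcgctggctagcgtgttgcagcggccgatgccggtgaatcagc
Psmb6: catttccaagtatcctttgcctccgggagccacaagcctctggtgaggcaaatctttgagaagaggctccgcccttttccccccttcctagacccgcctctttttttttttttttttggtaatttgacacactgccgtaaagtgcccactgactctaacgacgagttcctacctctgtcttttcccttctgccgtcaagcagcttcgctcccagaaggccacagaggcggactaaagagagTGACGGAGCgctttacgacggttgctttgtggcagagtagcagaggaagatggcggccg

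The other components with the core were Psmc6, Psmd12, Psmd9 and Psme4, and a short stretch around it shows how the letters between its fixed ends differ. Capitals mark the core, which reads GCNNNGTCA where it lies on the opposite strand. The stretches lie on the plus strand at chr14:45329585-45329617, chr11:107479278-107479301, chr5:123228147-123228179 and chr11:30771756-30771788 in this order.
Psmc6: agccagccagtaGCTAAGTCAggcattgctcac
Psmd12: tctGCTGTGTCAcatttgcccccc
Psmd9: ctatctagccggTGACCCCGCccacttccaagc
Psme4: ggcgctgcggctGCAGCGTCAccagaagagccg

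Of these 6 genes, 4 were higher in VMB than in PFC on all 3 scales, namely Psmb5, Psmb6, Psmc6 and Psmd12, beside 45.7% of all components and 35.5% of all probesets. With 6 genes nothing is read from this count. Psmd9 was not called, and Psme4 was lower on the common distribution (-0.21) but not on all 3 scales.

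Within a region the components had a lower median SD between arrays than all genes had. The median SD over the 19 arrays was 0.114 in NAc, 0.104 in PFC and 0.110 in VMB, and over all genes it was 0.151, 0.128 and 0.156. Genes were not matched by level here, and the part of level in the lower SD was not tested. No mouse had repeat arrays of a region, so spread between mice cannot be told apart from spread between arrays. The lowest SDs were those of the lid subunit Psmd6 (0.053) and Psmd4 (0.057) in NAc, of Psmd2 (0.061) and Psma3 (0.067) in PFC, and of Psmd13 (0.049) and Psmb7 (0.062) in VMB. The highest were those of Psmg2 (0.252) and Psmd7 (0.233) in NAc, of Psmg2 (0.195) and Psmb3 (0.191) in PFC, and of Psmb3 (0.284) and Psmc4 (0.251) in VMB. Without the 3 NAc arrays that stood apart, Psmg2 had 0.161 and Psmd7 0.140.

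Psmg2, a chaperone of alpha ring assembly, ran from 6.97 to 7.81 (median 7.59) in NAc, from 6.63 to 7.56 (median 7.31) in PFC and from 7.02 to 7.77 (median 7.43) in VMB. Psmc4, an ATPase, ran from 9.24 to 9.57 (median 9.45) in NAc, from 8.83 to 9.46 (median 9.18) in PFC and from 8.96 to 9.76 (median 9.30) in VMB. Psmd13, a lid subunit, ran from 8.14 to 8.77 (median 8.59) in NAc, from 7.92 to 8.27 (median 8.06) in PFC and from 8.21 to 8.39 (median 8.33) in VMB, and was thus narrow in VMB and wide in NAc. Psmd6 ran from 9.52 to 9.72 (median 9.65), from 9.27 to 9.69 (median 9.54) and from 9.48 to 9.70 (median 9.62), and Psmd4 from 9.73 to 9.96 (median 9.84), from 9.51 to 9.79 (median 9.67) and from 9.68 to 10.07 (median 9.85) in NAc, PFC and VMB.

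Core subunits varied together across the arrays of a region. The median correlation of 2 of the 14 constitutive core subunits over 19 arrays was 0.43 in NAc, 0.25 in PFC and 0.38 in VMB, and r was over 0.5 for 42.9%, 15.4% and 33.0% of their 91 pairs, beside 11.9%, 2.77% and 7.47% of all pairs of genes. For the 17 subunits of the 19S particle the median r was 0.18, 0.10 and 0.20, and for all 46 components 0.14, 0.11 and 0.19. Over all pairs of genes it was 0.02, 0.01 and 0.03. Pairs share arrays, hybridisation and RNA quality, and these correlations are a description with no test. Without the arrays that stood apart the median r of the core was 0.42 in NAc and 0.25 in PFC, and as deposited, without the common distribution, it was 0.64, 0.24 and 0.47.

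The components that followed the mean of the others most closely were Psmd12 (r = 0.85), Psma2 (0.83) and Psmc1 (0.78) in NAc, Psmg1 (0.71) and Psma2 (0.70) in PFC, and Psmg1 (0.85), Psmc1 (0.84) and Psmb6 (0.83) in VMB. Psmd3, a scaffold of the lid, ran against the others in all 3 regions (-0.43, -0.22 and -0.52). Psmb9 and Psmb3 did so in NAc (-0.42 and -0.41), where r without the 3 arrays that stood apart was -0.31 and -0.12. Further components had a negative r in a region, among them Psmb8 (-0.31) and the core subunit Psma4 (-0.28) in PFC and Psme3 (-0.47) in VMB. In NAc replicates 1, 6 and 19, 18, 6 and 9 components lay below every other NAc array, beside 14.92%, 15.01% and 13.39% of all genes, and 5, 10 and 8 lay above, beside 26.24%, 21.55% and 22.94%. Their cortical marker means were 6.41 to 6.78 against 6.88 to 7.47 in the other NAc arrays. The part of cortical tissue in these values was not tested.

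**Figure D5:**
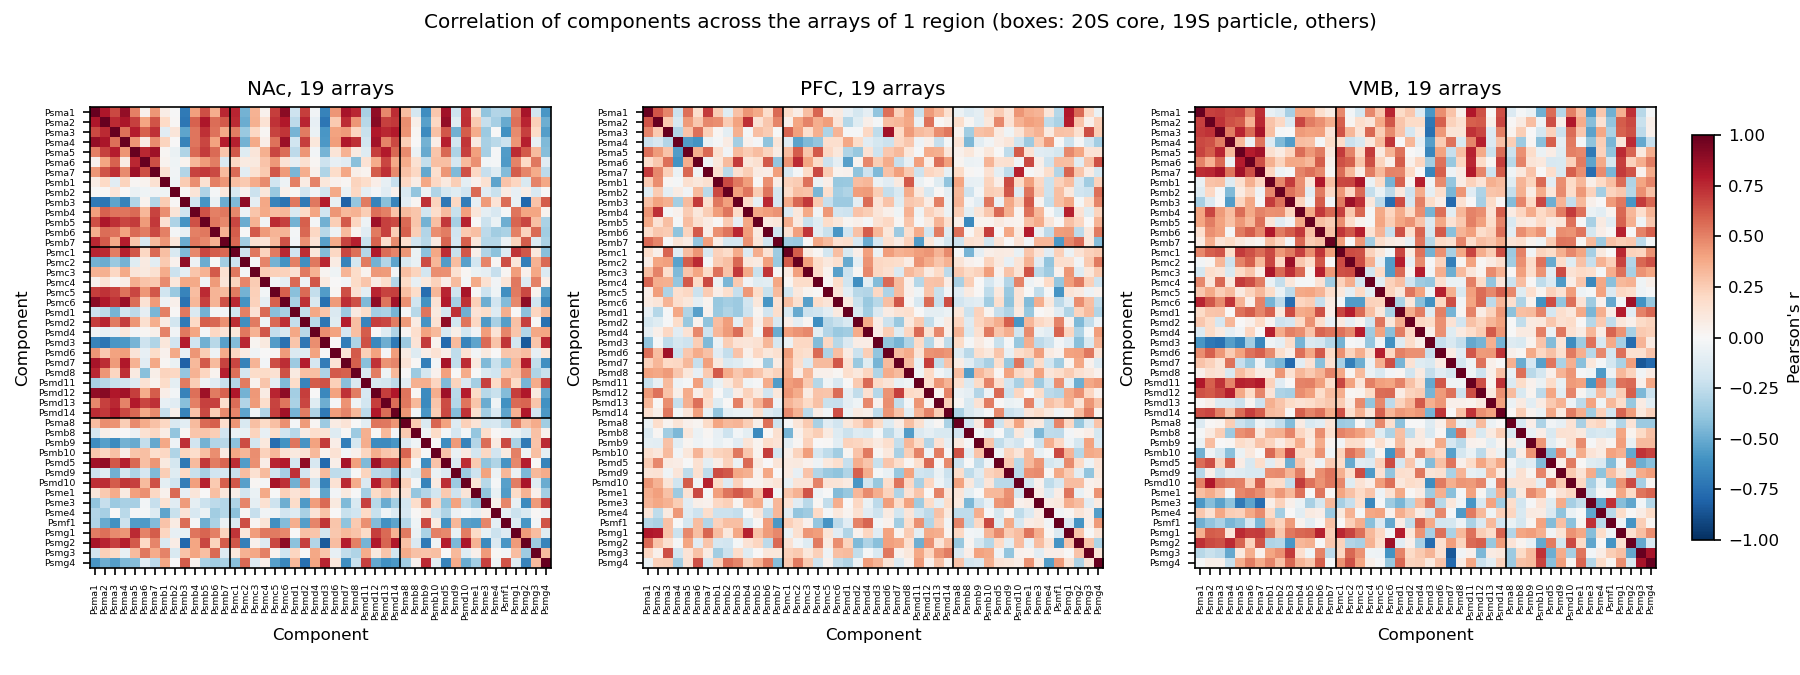
Pearson's r (colour) of each pair of the 46 components across the 19 arrays of NAc, PFC and VMB, with components on both axes in the order 14 constitutive 20S core subunits, 17 subunits of the 19S particle and 15 others, divided by black lines. The core block is reddest in NAc (median r 0.43) and palest in PFC (0.25).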

How the data were processed

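The deposited values were the log2 RMA signals of the authors for 57 Affymetrix mouse arrays, made, by the processing notes of the submitters, with GCOS and RMA. How regions were normalised together is not given in the sources used here. The table holds 22626 probesets, of which 20380 carry 1 symbol, 691 several and 1555 none. Arrays were grouped by the region in their titles. From these values, quantile normalisation over all arrays, a filter of 4.5 on at least 1 array (19815 kept, 2811 removed; all 46 components kept) and 1 fit of 3 regions were run in limma 3.58.1 (R 4.3.3, statmod 1.5.0), with Benjamini-Hochberg adjustment over all tested probesets, a threshold of 0.01 and a second size threshold of 0.5. The number of arrays limits the precision. By the methods each mouse gave 1 array per region, but no source used here ties the arrays to mice across regions, so the fit treats the 57 arrays as independent, and p-values measure the spread between arrays of a region.

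All components are named by role, with full values for the 3 largest differences in each direction and comparison among those called on all 3 scales, for the catalytic subunits, and for the 2 largest and 2 smallest SDs of each region. From gene lists, up to 3 genes per comparison are named. Psmb2, Psmc5 and others given in full beyond this rule were chosen after their values were seen. The members and lists were chosen with earlier results of these data known. An array stood apart where its mean r with its region lay more than 1.5 interquartile ranges under the lower quartile. Alternatives covered scaling, the filter, the mean over probesets, the replicate number as a block, array weights, and leaving arrays out. The scripts were tested on simulated data for NAc against PFC. Of added differences of 0.1, 0.2, 0.5 and 1, 4%, 36%, 98% and 100% were called, with 0 false calls. A difference of 0.2 or less can thus fail to be called. Promoter windows came from RefSeq (GRCm38.p6).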

Additional observations from a re-analysis of the deposited data

How the results depend on the processing

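The deposited scale moved the results most, since it adds the shift of all probesets between regions. On it 45 components were higher and 1 lower in NAc than in PFC (median difference 0.86), and 41 were higher and 1 lower in NAc than in VMB (median 0.57). With arrays centred on the median, 11 components were lower in NAc than in VMB, with a median of 0.059. The median correlation between components in NAc was 0.34 as deposited. The sign turned as deposited for Psmb7 (0.44), Psmb10 (0.27), Psmc5 (0.34), Psmd2 (0.50), Psmd5 (0.48) and Psmd7 (0.35) between NAc and PFC, and between NAc and VMB for Psma2 (0.48), Psma4 (0.49), Psmb5 (0.41), Psmb6 (0.52), Psmb7 (0.084), Psmb8 (0.21), Psmb10 (0.42), Psmc1 (0.38), Psmc5 (0.16), Psmc6 (0.11), Psmd1 (0.51), Psmd3 (0.42), Psmd5 (0.091), Psmd8 (0.51), Psmd10 (0.40), Psmd12 (0.37) and Psme3 (0.45). Centring turned Psmb6 (0.017), Psmd1 (0.001) and Psmd8 (0.0) between NAc and VMB. The mean over the probesets of a gene turned Psmd4 (-0.038), Psmd7 (0.084) and Psme4 (-0.054) between NAc and PFC. It turned Psma6 (-0.158) between NAc and VMB, with a low probeset in that mean (3.64 in NAc and 4.45 in VMB). It also took the call from Psma7 between NAc and VMB (0.052) and from Psma5 (-0.075), Psmc6 (0.10), Psmd4 (0.008) and Psmd6 (0.067) between VMB and PFC, and it made calls, among them Psmc6 (-0.284), Psme3 (-0.422) and Psmf1 (-0.264) between NAc and PFC. Omitting the filter or PFC replicate 20 changed no call of a component. Without NAc replicates 1, 6 and 19 and PFC replicates 3 and 14, the calls of Psme4 between NAc and PFC (0.12), Psmb3 (0.18) and Psmd10 (-0.11) between NAc and VMB and Psma7 between VMB and PFC (0.11) were lost, and 3 were gained. Array weights lost no call and gained 3 between NAc and PFC, among them Psmf1 (-0.098), 1 between NAc and VMB and 8 between VMB and PFC. The replicate numbers were not taken as pairing the arrays, as no source used here ties them to mice. Same-numbered arrays of 2 regions deviated together with a mean r of 0.06 (NAc and PFC), 0.07 (NAc and VMB) and 0.01 (PFC and VMB) over 18 numbers. For different numbers it was -0.003, 0.002 and -0.001. Arrays correlated best with their own number in 2, 2 and 1. Low likeness between regions cannot show that the numbers are not mice. With the replicate block, Psmg3 was called between NAc and VMB (-0.12), and no other call of a component changed. Psma8, Psmb8 and Psmb9 lay low on the array, which limits their differences.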

Other observations

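Psmc3ip and Psme3ip1 match the symbol pattern without being components. Psmc3ip, a factor of meiotic recombination, ranged from 6.25 to 6.78 in NAc, from 4.68 to 5.09 in PFC and from 4.70 to 5.44 in VMB, and NAc exceeded PFC by 1.60 and VMB by 1.46 without overlap of arrays (limma, adjusted p = 4.85e-36 and 1.98e-34), while VMB minus PFC was not called (0.14). Psme3ip1, a partner of the nuclear activator Psme3, was lowest in PFC, with 7.79 to 8.03 there, 8.31 to 8.65 in NAc and 8.23 to 8.51 in VMB.

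Across regions, arrays of the same replicate number showed little likeness in the components. Over 18 shared numbers the median r of the 46 components was 0.10 between NAc and PFC (all genes 0.06), 0.03 between NAc and VMB (all genes 0.10) and 0.08 between VMB and PFC (all genes 0.02).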
